A study of Mus musculus with 3 samples.

Results

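On day 14 of the in vitro Leydig differentiation, 229 cells carried transcripts of the early steroid enzymes but no detected transcript of Cyp17a1. They were chosen by their counts of unique molecular identifiers (UMIs, 1 per captured transcript). A member had 0 Cyp17a1 UMIs and at least 10 UMIs of Cyp11a1 plus Hsd3b1 per 10000 UMIs of the cell. The 229 cells were 23.5% of the 973 day 14 cells (exact Clopper-Pearson 95% interval 20.9–26.3%) and came from a series of 6124 cells. Of the 418 day 14 cells at or above the enzyme threshold, the members made up 54.8% (49.9–59.6%). A further 49 of these 418 cells had 1 Cyp17a1 UMI, and 140 had 2 or more. The 140 cells with 2 or more are called comparison cells here, and the 555 day 14 cells under the threshold are called low-enzyme cells.

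The study asked whether a mesenchymal population of the adult testis can give rise to Leydig cells in culture. Testes of adult C57BL/6 males (8 to 12 weeks) were dissociated, and Sca1+/cKit- cells were sorted and plated on Matrigel at 100000 cells per well. After 18 h of recovery, the cells were expanded for 3 days with PdgfAA, PdgfBB and Fgf2 (each 10 ng/ml) and the Hedgehog agonist SAG (0.5 µM), and were then kept in a differentiation medium that also held 5 mM LiCl2 and the gamma-secretase inhibitor DAPT at 10 µM. Single cells were captured by Drop-seq on days 4, 7 and 14, with 1 library per day, so that by the study's account the day 4 cells had seen the expansion medium only and the day 14 cells 10 days of the differentiation medium. No untreated culture was analysed here, and the number of animals or wells behind the day 14 library is not given in the sources used here.

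Leydig cells make testosterone from cholesterol in a short chain of enzyme steps. STAR moves cholesterol into mitochondria, CYP11A1 cuts its side chain to give pregnenolone, and HSD3B1 converts pregnenolone to progesterone. CYP17A1 then adds a hydroxyl group and splits off the remaining side chain to give androgens, and HSD17B3 makes testosterone from androstenedione. A cell with CYP11A1 and HSD3B1 but without CYP17A1 can make progesterone but not androgens by this route. On GRCm38, Cyp17a1 lies on the minus strand of chromosome 19 (46667165 to 46673172), Cyp11a1 on the plus strand of chromosome 9 (58006411 to 58027023) and Hsd3b1 on the minus strand of chromosome 3 (98852194 to 98859794).

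With 1 library there is no replicate, and the cells of a library are not replicates of a condition. Intervals here are exact Poisson, binomial or Clopper-Pearson intervals at 95% and cover counting error only. The members held between 636 and 26430 UMIs (median 3030) and 1010227 in all, whereas the comparison cells held between 880 and 80524 (median 6057) and 1233765 in all. The low-enzyme cells had a median of 3063 UMIs. Detected genes per cell had a median of 1483 in the members and 2306 in the comparison cells, and the mitochondrial share of UMIs had medians of 1.99% and 2.99%. No barcode was shared between any pair of the 3 libraries.

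The rule itself set the levels of its 3 genes, which are given as a description only. Cyp11a1 and Hsd3b1 together ranged from 10.1 to 214 UMIs per 10000 in the members (median 39.5) and from 11.0 to 272 in the comparison cells (median 113). Both enzymes were seen in 166 members, Cyp11a1 alone in 34 and Hsd3b1 alone in 29. The median member had 13 enzyme UMIs, and 206 of the 229 had at least 3. Summed over all cells, Cyp11a1 stood at 2478 UMIs per 1000000 (CPM) in the members and 6005 CPM in the comparison cells, and Hsd3b1 at 2320 and 4639 CPM. The 5 members just inside the threshold had 10.1 to 10.5 enzyme UMIs per 10000, resting on 10, 2, 3, 5 and 1 UMIs. The 5 Cyp17a1-negative cells just outside it had 8.98 to 9.59. At the edge, a single enzyme UMI could therefore place a shallow cell inside or outside the set.

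The Leydig label was checked with Star and Insl3, which the rule did not use. Star is the cholesterol transport gene described above, and Insl3 encodes a peptide hormone made by Leydig cells. Both were present in most members. Star per cell ranged from 0 to 71.5 UMIs per 10000 with a median of 11.4, and 195 of the 229 members (85.2%, 79.9–89.5%) had a Star UMI. Insl3 ranged from 0 to 126 UMIs per 10000 with a median of 20.8, and 211 members (92.1%, 87.9–95.3%) had an Insl3 UMI. With each cell thinned to 2000 UMIs, Star was seen in 85.3% of the 151 members deep enough (78 left out) and in 51.6% of 366 low-enzyme cells (189 left out). Insl3 was seen in 90.7% and 46.9%, respectively. On earlier days, without thinning, Star was seen in 30.9% of the day 4 cells (median depth 2886.5 UMIs) and 46.5% of the day 7 cells (3285 UMIs), and Insl3 in 0.336% and 1.93%. No group of day 14 cells that should lack both genes was at hand, so the part of free RNA in these shares was not tested. At day 14 the low-enzyme cells themselves held Star at 666 CPM and Insl3 at 716 CPM, against 1422 and 2315 CPM in the members.

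Members with only 1 of both enzymes detected also carried Star and Insl3. Star stood at 1504 CPM (1280–1755) in the 34 members with Cyp11a1 alone, at 1643 CPM (1386–1933) in the 29 with Hsd3b1 alone and at 1388 CPM (1308–1471) in the 166 with both. Insl3 stood at 1980, 2651 and 2323 CPM in the same order. The Star intervals of the 3 sets overlapped, while those of Insl3 were apart between the first set (1723–2265) and the second (2322–3014).

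Markers of other cell types were checked as whole lists in the 128 members that were paired by depth, as described below. Of the 14 macrophage genes, 9 were at 0, among them Adgre1, Ptprc and the C1q genes, and their sum was 17.9 CPM against 16.3 CPM in the paired comparison cells. No member held more than 2 macrophage UMIs. Of 10 endothelial genes, 7 were at 0, including Pecam1, Tie1 and Kdr, with sums of 16.6 and 30.3 CPM. Of 13 Sertoli genes, 7 were at 0, including Amh, Dhh and Fshr. The Sertoli sums of 3187 and 3196 CPM came almost wholly from Ctsl, a lysosomal protease that is not specific to that cell. Of 12 germ cell genes, 6 were at 0, including Ddx4 and Dazl, with sums of 54.9 and 50.1 CPM. A stromal list and a contractile list were higher in the members and are described with the other gene groups.

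A count of 0 in a cell only limits the level of Cyp17a1. Taking 3 counts as the limit, a 0 allowed up to 1.14 UMIs per 10000 in the deepest member, 9.90 in the median member and 47.2 in the shallowest. The comparison cells ranged from 0.869 to 239 Cyp17a1 UMIs per 10000, with quartiles of 7.65, 17.5 and 66.3. The limit of 176 members lay under the median of the comparison cells, and that of 81 members under their lower quartile. Summed over all 229 members, 3 counts would be 2.97 CPM, but the rule fixed their sum at 0. That value is therefore no limit on the level of the set or of a cell. In the low-enzyme cells, 53 of 555 (9.55%, 7.24–12.3%) had a Cyp17a1 UMI, at 22.7 CPM. The members were chosen to have none, so their sum cannot be compared with that background.

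Depth alone could move cells with Cyp17a1 into the member set. Of the 117 comparison cells with 2000 UMIs or more, 14.8% would be at 0 after thinning to 2000 UMIs, and of the 97 with 3000 or more, 11.8% would be at 0 after thinning to 3000. At 1000 UMIs the share was 23.6% of 137 cells. These shares cover only cells chosen for 2 or more Cyp17a1 UMIs and leave out those with 1. Of the 44 cells with 1 Cyp17a1 UMI that held 2000 UMIs or more, 40.4% would keep it after thinning to 2000. Among the comparison cells, 48 had fewer than 5 Cyp17a1 UMIs and 50 had 20 or more. Low Cyp17a1 and undetected Cyp17a1 were therefore not separable in single shallow cells, while the limits of all members lay under the upper quartile of the comparison cells.

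Several members were deep enough for their 0 to be informative. The deepest had 26430 UMIs with 82 Cyp11a1, 23 Hsd3b1, 42 Star and 11 Insl3 UMIs, and its 0 allowed at most 1.14 Cyp17a1 UMIs per 10000. The next 4 held 15331 to 16399 UMIs, with 13 to 27 Star and 9 to 46 Insl3 UMIs each. Among members at 100 or more enzyme UMIs per 10000, the deepest had 14106 UMIs with 123 Cyp11a1 and 132 Hsd3b1 UMIs. Another had 12752 UMIs with 151 of Hsd3b1 and 0 of Cyp11a1, and the next had 11278 UMIs with 128 of Cyp11a1 and 15 of Hsd3b1. All of these cells had Star and Insl3 UMIs. Those named at 100 or more enzyme UMIs per 10000 had limits for Cyp17a1 of 2.13 to 2.66 per 10000.

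**Figure D1:**
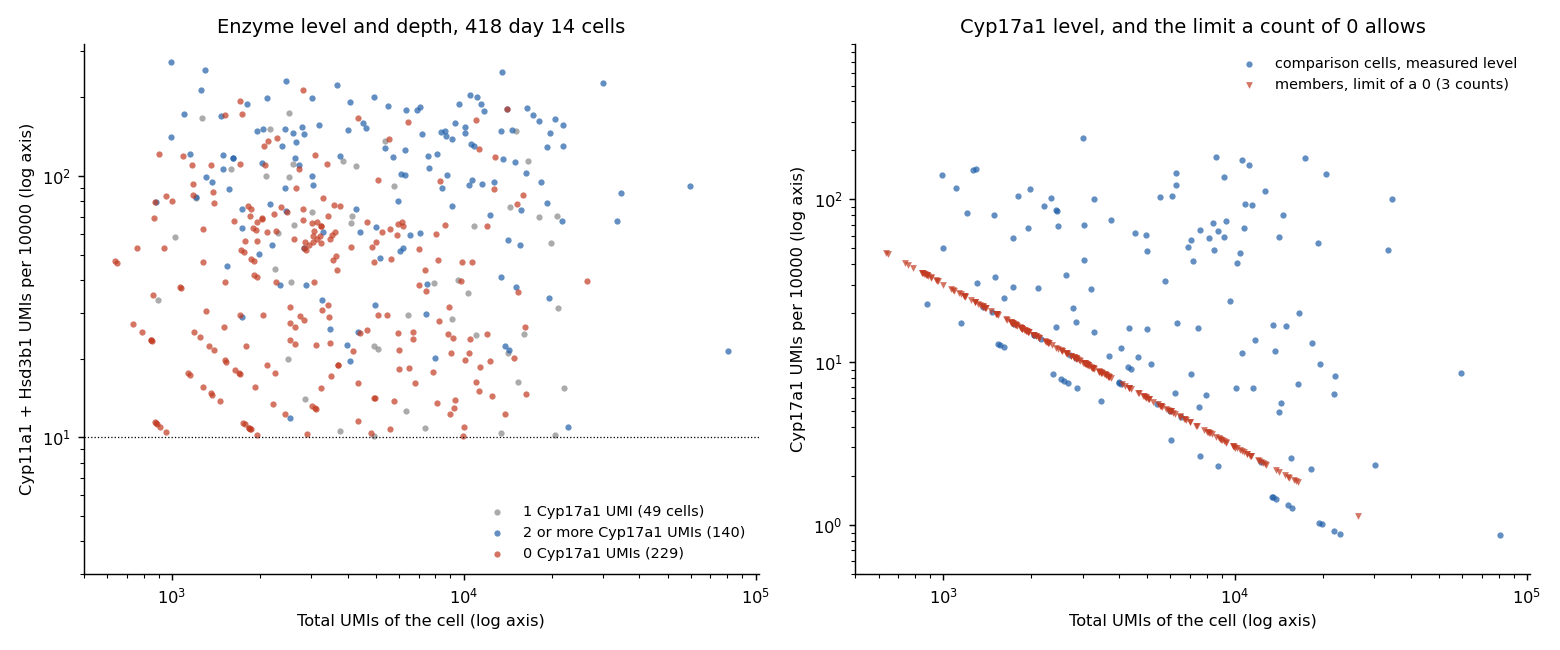
Left, enzyme UMIs (Cyp11a1 plus Hsd3b1 per 10000, log axis) against total UMIs (log axis) for the 418 day 14 cells at the threshold of 10 (dotted line). Right, the Cyp17a1 level of the 140 comparison cells and, for the 229 members, the level that a count of 0 allows (3 counts) against total UMIs, both axes log. The members' limits run from 47.2 down to 1.14 per 10000 as depth grows, across the range of the comparison cells.

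The share of cells at 0 for Cyp17a1 fell along both enzyme level and depth. Among cells with 10 to 20 enzyme UMIs per 10000, 61 of 74 were members (82.4%, 71.8–90.3%). The share was 68.6% (58.8–77.3%) of 105 cells from 20 to 50, 57.5% (48.4–66.2%) of 127 cells from 50 to 100, and 20.5% (13.5–29.2%) of 112 cells at 100 or more. By depth it was 73.6% (64.1–81.7%) of 106 cells under 2000 UMIs, 58.5% (49.9–66.7%) of 142 cells from 2000 to 5000, 51.2% (40.0–62.3%) of 84 cells from 5000 to 10000 and 29.1% (19.8–39.9%) of 86 cells at 10000 or more. Adjacent intervals overlapped, except between the last pair of classes in each series. The enzyme level and Cyp17a1 come from the same cells, and the classes are given as a description.

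**Figure D2:**
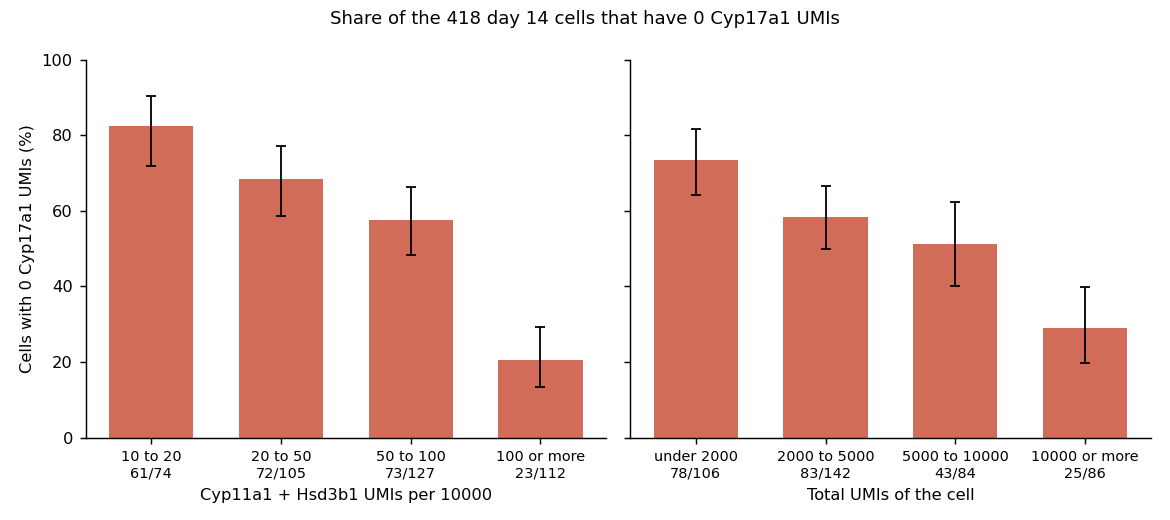
Percent of the 418 day 14 cells with 0 Cyp17a1 UMIs (bars) with exact Clopper-Pearson 95% intervals, by enzyme level (left) and by total UMIs (right), with the number of members over cells under each bar. The share falls from 82.4% to 20.5% over the enzyme classes and from 73.6% to 29.1% over the depth classes.

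The same rule found few such cells earlier in the culture. It found 27 of 2171 cells on day 7 (1.24%, 0.821–1.80%) and 8 of 2980 on day 4 (0.268%, 0.116–0.528%). Cells at the enzyme threshold with 2 or more Cyp17a1 UMIs numbered 4 on day 7 and 0 on day 4. Taking 3 counts as the limit, the count of 0 on day 4 allows a share of up to 0.101%. Star stood at 2239 CPM (1973–2531) in the 27 day 7 cells and at 1422 CPM (1350–1498) in the day 14 members, whereas Insl3 stood at 420 CPM (310–557) and 2315 CPM (2222–2411). Insl3 was thus lower and Star higher in the day 7 cells of the same rule. Day and library cannot be told apart.

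Because the members were shallower than the comparison cells, the gene comparison used pairs. Pairing cells whose total UMIs differed by at most 25% gave 128 members (783419 UMIs, median 5046.5 per cell) and 128 comparison cells (858246 UMIs, median 5076.5). The 101 members without a partner had a median of 1916 UMIs. In these pairs the enzyme level still differed, with medians of 29.5 and 117 per 10000. A second pairing, which also held the enzyme level within a factor of 1.5, gave 81 cells on each side (medians of 3215 and 3042 UMIs), with enzyme medians of 75.1 and 89.3. This held the sum of both enzymes and not each of them. In the second pairing Cyp11a1 stood at 3572 CPM in the members and 4944 CPM in the comparison cells, and Hsd3b1 at 4110 and 3405 CPM. Values from the first are called depth pairs and those from the second depth and enzyme pairs. The mitochondrial share was also lower in the members, with medians of 2.05% and 3.00% in the depth pairs and 2.46% and 2.79% in the depth and enzyme pairs, and its part in the results was not tested.

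Star was higher and Insl3 lower in the members than in the cells with Cyp17a1. In the depth pairs Star stood at 1402 CPM (1320–1487) in the members and 1056 CPM (988–1127) in the comparison cells, a ratio of 1.33 (1.21–1.45). In the depth and enzyme pairs it stood at 1436 and 1098 CPM, a ratio of 1.31 (1.15–1.48). Star was also seen in more member cells. After thinning to 2000 UMIs, 84.9% of 105 paired members and 63.2% of 105 paired comparison cells had a Star UMI (23 left out of each). Insl3 stood at 2235 CPM in the members and 3765 CPM in the comparison cells of the depth pairs, a ratio of 0.594 (0.560–0.629). It stood at 2774 and 3481 CPM in the depth and enzyme pairs, a ratio of 0.797 (0.736–0.863). A single member held 10.9% of the Insl3 UMIs of the paired members, and 17.3% of those in the depth and enzyme pairs. Enzyme classes, here and below, held all members and comparison cells and were not paired by depth. By enzyme class, Star was 1351 CPM in the members and 1231 CPM in the comparison cells from 10 to 50. It was 1530 and 1502 CPM from 50 to 100, and 1593 (1352–1864) and 1138 (1054–1226) CPM at 100 or more. The intervals of Star were apart only in the highest class, which held 23 members and 78 comparison cells. Insl3 was lower in the members in each class, at 1922 (1816–2033) and 2166 CPM (1985–2359), then 3028 (2825–3242) and 3232 CPM (3055–3416). In the highest class it stood at 2908 (2579–3268) and 3933 CPM (3777–4095), and only there were its intervals apart.

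Genes of steroid synthesis other than the 3 rule genes differed in both directions. Of the 14 with at least 20 UMIs in the depth pairs, 2 were at least 1.5-fold higher in the members and 3 at least 1.5-fold lower. Among all 7145 genes at that minimum, 5.30% were higher and 5.47% lower by that measure. With the enzyme level also held, 1 of 12 was higher and 1 lower, beside 7.68% and 6.36% of all 5013 genes. Fold calls and log2 ratios add 10 CPM to both values. The median log2 ratio of the list was -0.18, beside -0.0015 for all genes, and 0.21 beside 0.033 in the depth and enzyme pairs. Hsd17b3, the last step to testosterone, rested on few UMIs, 12 in 7 members and 33 in 21 comparison cells of the depth pairs. It stood at 15.3 and 38.5 CPM there, a ratio of 0.398 (0.187–0.792), and 1 member held 41.7% of the members' UMIs. In the depth and enzyme pairs it had 4 and 16 UMIs, or 10.0 and 39.0 CPM (0.257, 0.0626–0.798). Hsd17b7, which also acts in cholesterol synthesis, stood at 203 and 329 CPM, but at 226 and 256 CPM once the enzyme level was held. Srd5a3, a steroid reductase homolog of dolichol synthesis, was higher in the members in both pairings (37.0 and 18.6 CPM, then 55.2 and 9.76 CPM). Hsd11b1, which interconverts glucocorticoids, stood at 61.3 and 26.8 CPM, and at 60.3 and 43.9 CPM in the depth and enzyme pairs. Hsd3b6, a close copy of Hsd3b1 whose reads may be hard to assign, was one of the 3 lower genes, but it was seen in only 2 cells of each group in the depth pairs, and 1 comparison cell held 97.7% of its UMIs there. Tspo, the mitochondrial cholesterol-binding protein, stood at 276 and 251 CPM, with a ratio of 1.10 (0.907–1.34).

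Cytochrome P450 enzymes receive electrons from small partner proteins, and these differed in direction. Fdx1, the ferredoxin that feeds CYP11A1, stood at 1047 CPM in the members and 2001 CPM in the comparison cells of the depth pairs (ratio 0.523, 0.481–0.569), and at 1162 and 1581 CPM in the depth and enzyme pairs (0.735, 0.651–0.830). Its reductase Fdxr stood at 383 and 500 CPM (0.766, 0.659–0.890), and at 427 and 471 CPM (0.907, 0.733–1.12). Cyb5a, whose product aids the lyase step of CYP17A1, was higher in the members in both pairings, at 816 and 608 CPM (1.34, 1.19–1.51) and at 889 and 656 CPM (1.35, 1.15–1.59). Por, the reductase that serves CYP17A1, was too low to compare, with ratios of 0.665 (0.342–1.26) and 1.47 (0.505–4.55). Of the 8 genes measured in this list in the depth pairs, 1 (Fdx1) was lower by 1.5-fold and none was higher, beside 5.47% and 5.30% of all genes. With the enzyme level also held, 0 of 7 passed in either direction. The median log2 ratio was 0.11 in both pairings.

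**Figure D3:**
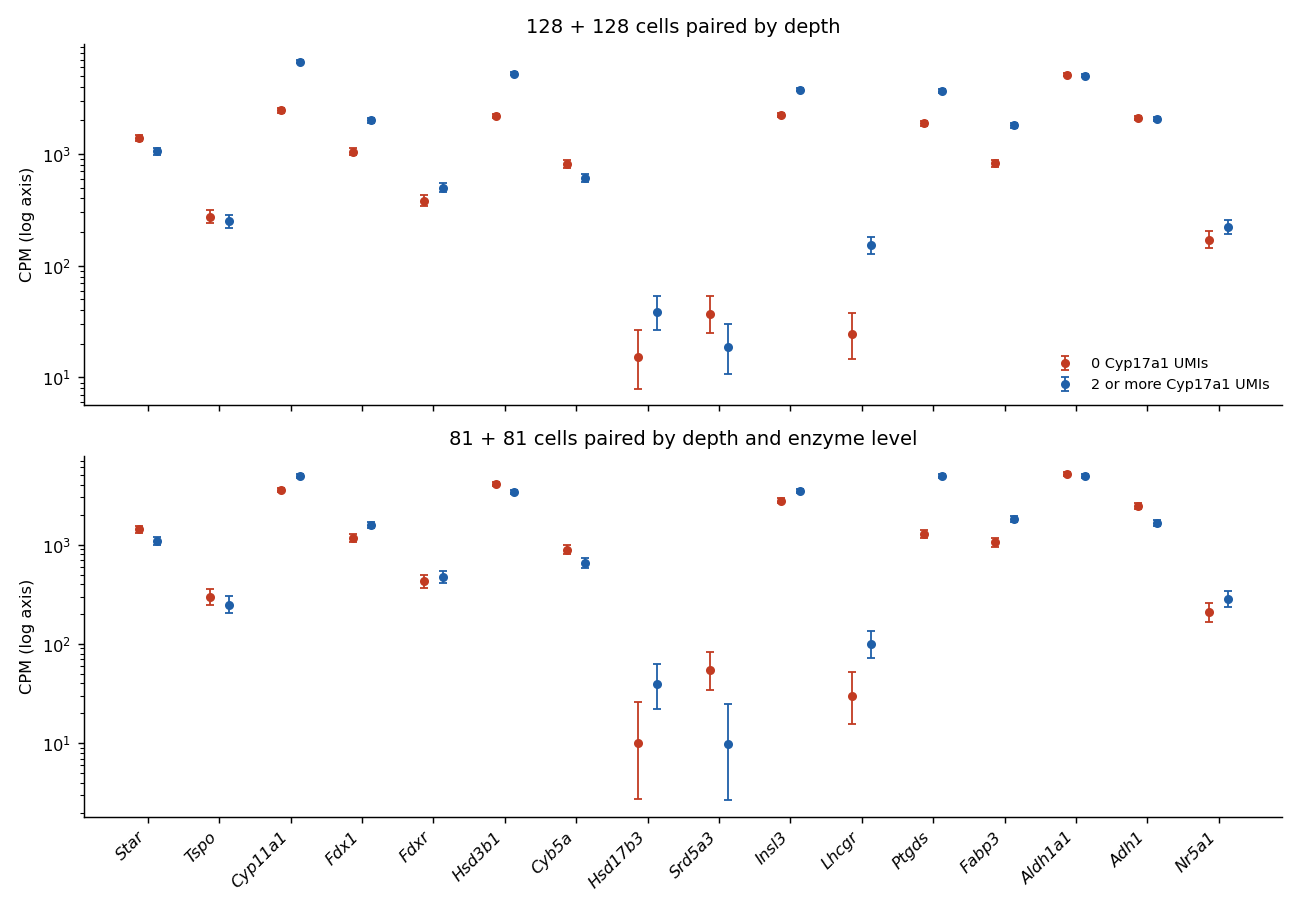
Level of 16 steroidogenic and Leydig genes (CPM, log axis) in cells with 0 Cyp17a1 UMIs and cells with 2 or more, in the 128 + 128 cells paired by depth (top) and the 81 + 81 cells paired by depth and enzyme level (bottom). Points are summed UMIs per 1000000 and bars exact Poisson 95% intervals. Star and Cyb5a were higher and Lhcgr, Fabp3 and Ptgds lower in the members in both panels. Cyp11a1 and Hsd3b1 are rule genes shown as a description only, and the second pairing held their sum.

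Among genes of mature Leydig cells, some were lower in the members in the depth pairs alone, some in both pairings, and others were level or higher. In the depth pairs, 9 of 14 measured genes were at least 1.5-fold lower in the members and 2 (Vcam1 and Gstm2) higher, beside 5.47% and 5.30% of all genes, with a median log2 ratio of -0.84. In the depth and enzyme pairs, 5 of 13 were lower and none was higher, beside 6.36% lower and 7.68% higher among all 5013 genes, and the median was 0.067. Lhcgr, the receptor for luteinizing hormone, had 19 UMIs in 16 paired members and 131 UMIs in 42 comparison cells, or 24.3 and 153 CPM (ratio 0.159, 0.0927–0.258). It stood at 30.1 and 100 CPM in the depth and enzyme pairs (0.301, 0.144–0.584). Ptgds, a prostaglandin D synthase, stood at 1882 and 3663 CPM, and at 1275 and 4888 CPM (0.261, 0.236–0.288) with the enzyme level held. A single comparison cell carried 31.0% of the latter Ptgds UMIs. Fabp3, a fatty acid binding protein, stood at 825 and 1804 CPM, and at 1054 and 1827 CPM (0.577, 0.511–0.651). By contrast, Prlr, the prolactin receptor, changed from 356 and 550 CPM to 442 and 395 CPM, and Hao2, a hydroxyacid oxidase, from 74.0 and 230 CPM to 116 and 110 CPM. Aldh1a1, a retinaldehyde dehydrogenase, stood at 5115 and 5029 CPM, and at 5177 and 4903 CPM. Adh1, an alcohol dehydrogenase, stood at 2106 and 2064 CPM, and at 2453 and 1661 CPM.

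Within enzyme classes the same genes could be followed over all 418 cells except the 49 with 1 UMI. These classes were not paired by depth. The members were shallower in each, with median UMIs of 3122 and 5062.5, then 2941 and 5996.5, and 2293 and 6274 in the highest. The part of depth in the class values was not tested. Lhcgr had 12 UMIs in 133 members (18.7 CPM, 9.68–32.7) and 9 UMIs in 22 comparison cells (37.1 CPM, 16.9–70.4) from 10 to 50 enzyme UMIs per 10000, with overlapping intervals. From 50 to 100 it stood at 33.0 (15.1–62.7) and 158 CPM (121–203), and at 100 or more at 41.1 (11.2–105) and 149 CPM (120–183), with intervals apart in both classes. Ptgds was 1719 and 3949 CPM in the lowest class and 1472 and 3911 CPM in the middle one, whereas at 100 or more it was 2210 (1924–2525) and 2363 CPM (2242–2489). Fabp3 was lower in the members in all 3 classes, at 709 and 1046, 976 and 1414, and 1624 and 1987 CPM.

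Of 16 transcription factors of the Leydig lineage measured in the depth pairs, 1 was lower by 1.5-fold in the members and none was higher. This stood beside 5.47% and 5.30% of all genes. In the depth and enzyme pairs, 1 of 12 was higher and none was lower, beside 7.68% and 6.36% of all genes. The factors named here differed by less than 1.5-fold in the depth pairs. Nr5a1, the nuclear receptor that drives steroidogenic genes, stood at 171 CPM in the members and 223 CPM in the comparison cells (ratio 0.769, 0.612–0.964), and at 211 and 283 CPM (0.745, 0.556–0.995) in the depth and enzyme pairs. By enzyme class, it stood at 133 and 222 CPM from 10 to 50 and at 195 and 238 CPM from 50 to 100. At 100 or more the direction turned, at 319 (216–452) and 202 CPM (168–241), with overlapping intervals. Gata4 stood at 44.7 and 45.4 CPM, and Nr2f2, a factor of the Leydig progenitors, at 46.0 and 47.8 CPM. The median log2 ratio of the list was -0.038, and 0.20 with the enzyme level held. In the cAMP and immediate early list, Prkar2b, a regulatory subunit of protein kinase A, was lower in the members in both pairings (19.2 and 78.1 CPM, then 20.1 and 56.1 CPM). Dusp1, a MAP kinase phosphatase, was higher in both (42.1 and 19.8 CPM, then 45.2 and 17.1 CPM). Fos stood at 44.7 and 80.4 CPM, and at 22.6 and 97.6 CPM. Of the 18 genes of this list measured in the depth pairs, 1 was higher and 2 were lower by 1.5-fold, beside 5.30% and 5.47% of all genes. Of 12 in the depth and enzyme pairs, 1 was higher and 4 were lower, beside 7.68% and 6.36%. The list's median was 0.11 in the depth pairs and -0.42 in the depth and enzyme pairs, so its sign depended on the pairing.

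Cholesterol supply genes were near the comparison cells. Of 27 measured, 3 (Hsd17b7, Dhcr7 and Scarb1) were lower by 1.5-fold and none was higher in the depth pairs, beside 5.47% and 5.30% of all genes, with a median log2 ratio of -0.20. Of 27 measured in the depth and enzyme pairs, 2 were higher and 1 lower, beside 7.68% and 6.36% of all genes, with a median of 0.028. Scarb1, the receptor for high-density lipoprotein, stood at 180 and 320 CPM and then at 218 and 273 CPM. Dhcr7, the last enzyme of cholesterol synthesis, stood at 62.6 and 103 CPM and then at 37.7 and 110 CPM. Cyp51 was 728 and 609 CPM and then 859 and 534 CPM. Lists of lysosome, nuclear oxidative phosphorylation, glycolysis and ER stress genes had medians between -0.13 and 0.021 in the depth pairs. Within them, Lgmn, a lysosomal protease, was higher in the members in both pairings, at 890 and 481 CPM and at 876 and 534 CPM.

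Detoxifying enzymes were uneven. Gstm1, a glutathione transferase, stood at 3897 CPM in the members and 2306 CPM in the comparison cells (ratio 1.69, 1.60–1.79), and at 3628 and 2383 CPM (1.52, 1.40–1.65) in the depth and enzyme pairs. Its near copy Gstm2 stood at 2724 and 1771 CPM and at 2478 and 2000 CPM, and reads of the Gstm genes may be split among copies. Gstk1, the mitochondrial and peroxisomal form, was lower in the members, at 81.7 and 161 CPM and at 72.8 and 151 CPM. Prdx5, a peroxiredoxin, was higher in both pairings (583 and 359 CPM, then 535 and 349 CPM). Gpx3, a secreted glutathione peroxidase, stood at 666 and 331 CPM, but at 537 and 468 CPM once the enzyme level was held. In the depth pairs, 2 of 15 glutathione transferases were higher and 1 lower by 1.5-fold, and 3 of 23 peroxide defence genes higher and 1 lower. This stood beside 5.30% and 5.47% of all genes. With the enzyme level held, 2 of 13 were higher and 2 lower, and 2 of 21 higher and 0 lower, beside 7.68% and 6.36%. The list medians in the depth pairs were -0.087 for glutathione transferases and -0.040 for peroxide defence. In the depth and enzyme pairs they were 0.19 and 0.16, beside 0.033 for all genes.

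More stromal genes were higher in the members in the depth pairs than in the depth and enzyme pairs, which differ in their cells and depth as well as in enzyme level. In the depth pairs, 7 of 16 measured stromal progenitor genes were at least 1.5-fold higher and none was lower, beside 5.30% and 5.47% of all genes, with a median log2 ratio of 0.51. Of 16 in the depth and enzyme pairs, 2 (Ly6c1 and Dpt) were higher and 1 (Mfap4) lower, on so few genes near the 7.68% and 6.36% of all genes, with a median of 0.14. Dcn, a matrix proteoglycan, stood at 548 and 270 CPM and then at 419 and 373 CPM. Col3a1, a fibrillar collagen, stood at 8169 and 4661 CPM and then at 6836 and 6279 CPM. Ly6a, which encodes the SCA1 antigen on which the starting cells were sorted, stood at 624 and 156 CPM and then at 276 and 217 CPM, and 1 member held 36.0% of the paired members' Ly6a UMIs in the first case. Tcf21, the mesenchymal factor of the founder cells, had 2.55 and 2.33 CPM, too few UMIs to compare. In the contractile list, 5 of 10 genes were higher in the depth pairs (median 0.53), beside 5.30% of all genes, and 4 of 8 in the depth and enzyme pairs (median 0.52), beside 7.68%. The 4 were Vim (1947 and 978 CPM, then 1900 and 1064 CPM), Lgals1 (1268 and 560 CPM, then 1100 and 637 CPM), Ctgf and Tpm2. By enzyme class, Vim was not higher in the members from 10 to 50, at 1950 (1844–2061) and 2080 CPM (1902–2269). It was higher in them from 50 to 100, at 2011 (1846–2187) and 1142 CPM (1038–1254). At 100 or more it stood at 1326 (1107–1575) and 939 CPM (863–1020). The smooth muscle genes Cnn1, Myh11, Des and Tagln were at 0 in the paired members. The summed level of the stromal list was 12553 CPM in the members and 7575 CPM in the comparison cells, and 10268 and 10138 CPM with the enzyme level held. The part of these levels in the other differences was not tested.

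**Figure D4:**
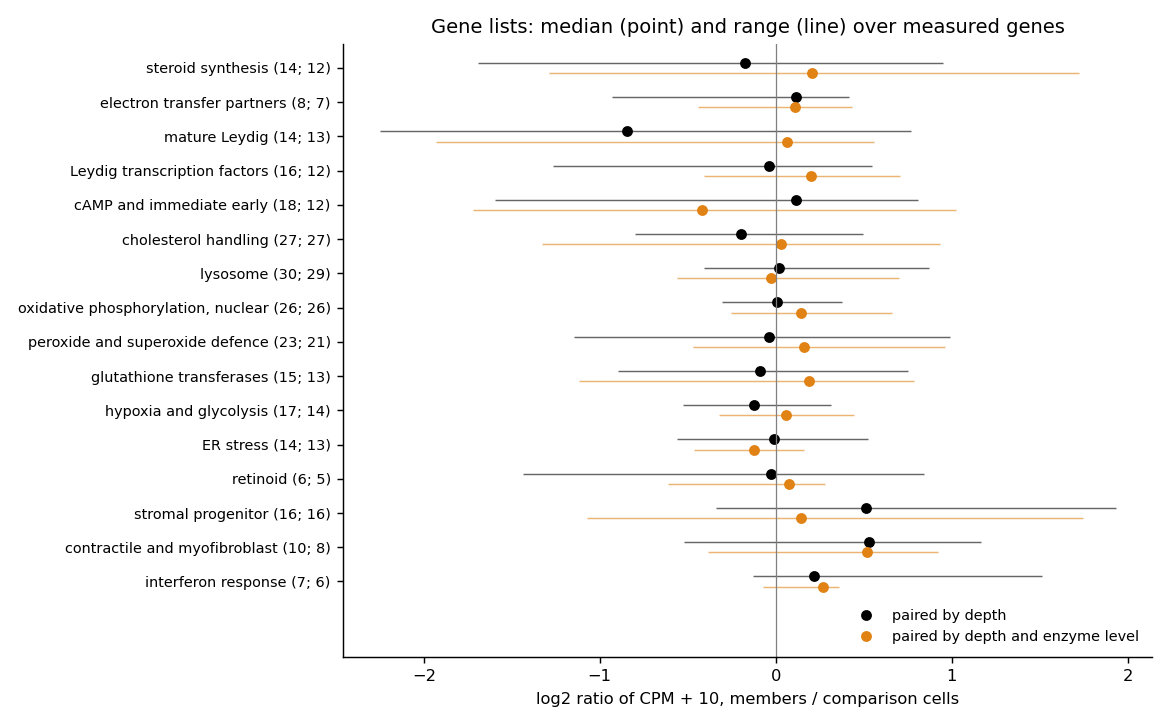
Median (point) and range (line) of the log2 ratio of members to comparison cells over the measured genes of 16 gene lists, with 10 CPM added to both levels, in depth pairs and in depth and enzyme pairs. Numbers after each name are the genes measured in each pairing. The mature Leydig median moves from -0.84 to 0.067 when the enzyme level is held, while the contractile median stays at 0.53 and 0.52.

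Across all genes of at least 100 CPM in either group, 88 of 1808 (4.87%) were at least 1.5-fold higher in the paired members and 72 (3.98%) at least 1.5-fold lower. In the depth and enzyme pairs, 83 of 1854 (4.48%) were higher and 63 (3.40%) lower. These counts are of sizes in 1 library and not of tested changes. The highest ratio was that of Pdlim3, a LIM protein of the actin cytoskeleton, with 84 UMIs in 31 members and 12 UMIs in 8 comparison cells (107 and 14.0 CPM). Aspn, a leucine-rich matrix protein, stood at 162 and 26.8 CPM (ratio 6.05, 3.86–9.89). Serpina3m, a protease inhibitor of a large mouse gene family, stood at 253 and 48.9 CPM (5.16, 3.69–7.39), and Adamts5, an aggrecan-cleaving protease, at 355 and 75.7 CPM (4.69, 3.57–6.24). Ctla2a, a cysteine protease inhibitor, stood at 1519 and 436 CPM (3.49, 3.10–3.93), but its direction turned within enzyme classes, as given in the next paragraph. The others of the 15 were Ly6a, Col15a1, Figf (VEGF-D), Wisp1, Dpt, Mmp2, Frzb, Matn2, Zmat5 and Serpinb9, with levels of 121 to 624 CPM in the members.

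The depth and enzyme pairs were drawn from the same members and comparison cells as the ranking, so they are no separate check of it. In them, 11 of these 15 were at least 1.5-fold higher, and the exceptions were Ly6a, Frzb, Matn2 and Serpinb9. Pdlim3 stood at 115 and 24.4 CPM (ratio 4.73, 2.36–10.5), Serpina3m at 296 and 70.7 CPM (4.19, 2.77–6.52), Adamts5 at 296 and 85.4 CPM (3.47, 2.36–5.22) and Dpt at 196 and 51.2 CPM. By enzyme class, Serpina3m stood at 225 (190–265) and 210 CPM (156–276) from 10 to 50, at 400.0 (328–483) and 28.5 CPM (14.2–51.0) from 50 to 100, and at 185 (110–292) and 44.6 CPM (29.4–65.0) at 100 or more. It was therefore apart in the upper classes and not in the lowest. Pdlim3 stood at 98.4 (75.6–126) and 90.6 CPM (56.8–137) in the lowest class. It stood at 117 (80.3–166) and 31.1 CPM (16.1–54.3) in the middle one. In the highest it stood at 41.1 (11.2–105) and 4.96 CPM (1.02–14.5), so its intervals were apart in the middle class only. Ctla2a was lower in the members from 10 to 50, at 1638 and 2034 CPM, higher from 50 to 100, at 1358 and 427 CPM, and lower at 100 or more, at 370 (259–512) and 752 CPM (685–825). Adamts5 was apart in the middle class only, at 327 and 124 CPM, against 359 and 325 CPM in the lowest and 41.1 and 38.0 CPM in the highest. The 15 were ranked by high ratios to the paired comparison cells, so a level above these cells elsewhere was partly set by the ranking. The share over all genes was not counted. In the low-enzyme cells, 14 of the 15 genes stood above the comparison cells, and 8 of the 15 above the members as well. Serpina3m was one of the 7 that stood below the members there, at 165 CPM. Over the earlier libraries it was at 0.631 CPM on day 4 and 0.774 CPM on day 7.

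On the lower side, Tmem119, a transmembrane protein, had 2 UMIs in the paired members and 88 UMIs in 35 comparison cells (2.55 and 103 CPM, ratio 0.0249, 0.00297–0.0927). Inha, the inhibin alpha subunit, stood at 25.5 and 167 CPM (0.153, 0.0909–0.246), with 38.5% of the comparison UMIs in 1 cell. Amhr2, the receptor for anti-Müllerian hormone, stood at 28.1 and 137 CPM (0.204, 0.123–0.324), and Lhcgr is described above. Ly6d was at 14.0 and 190 CPM, but only 10 comparison cells had it and 1 of them held 84.0% of its UMIs. Tcaf1, a regulator of a cation channel, was measured in more cells, 67 members and 100 comparison cells, at 188 and 579 CPM (0.324, 0.268–0.390). Agt, which encodes angiotensinogen, stood at 565 and 1354 CPM. The others were Klk1b24, AU021092, Net1, Serpina3a, Hao2, Fads2, Hspa12a and Ephx1, at 12.8 to 320 CPM in the members and 134 to 733 CPM in the comparison cells. Klk1b24 and Serpina3a belong to families of near copies, and reads may be split among them.

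For these 15 too, the depth and enzyme pairs came from the same cells as the ranking and are no separate check of it. In those pairs, 12 of the 15 were at least 1.5-fold lower, and the exceptions were Hao2, Hspa12a and Ephx1. Tmem119 then had 0 UMIs in the members and 23 in the comparison cells, Amhr2 stood at 32.6 and 112 CPM (0.291, 0.144–0.547), and Tcaf1 at 231 and 483 CPM (0.478, 0.369–0.615). By enzyme class, Tcaf1 was 164 and 194 CPM in the lowest, 213 and 461 CPM in the middle and 329 and 670 CPM in the highest. Amhr2 was level in the lowest, at 21.9 (12.0–36.7) and 24.7 CPM (9.07–53.8), and apart in the middle, at 36.7 (17.6–67.5) and 155 CPM (119–200). In the highest class its intervals overlapped, at 51.4 (16.7–120) and 109 CPM (84.4–139). Agt was close in the first classes (353 and 284 CPM, then 734 and 795 CPM) and higher in the members in the highest, at 1840 (1580–2130) and 1434 CPM (1340–1532). These 15 were ranked by low ratios to the paired comparison cells, so a level below these cells elsewhere was partly set by the ranking. None of the 15 stood higher in the low-enzyme cells than in all comparison cells together, and the share over all genes was not counted.

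**Figure D5:**
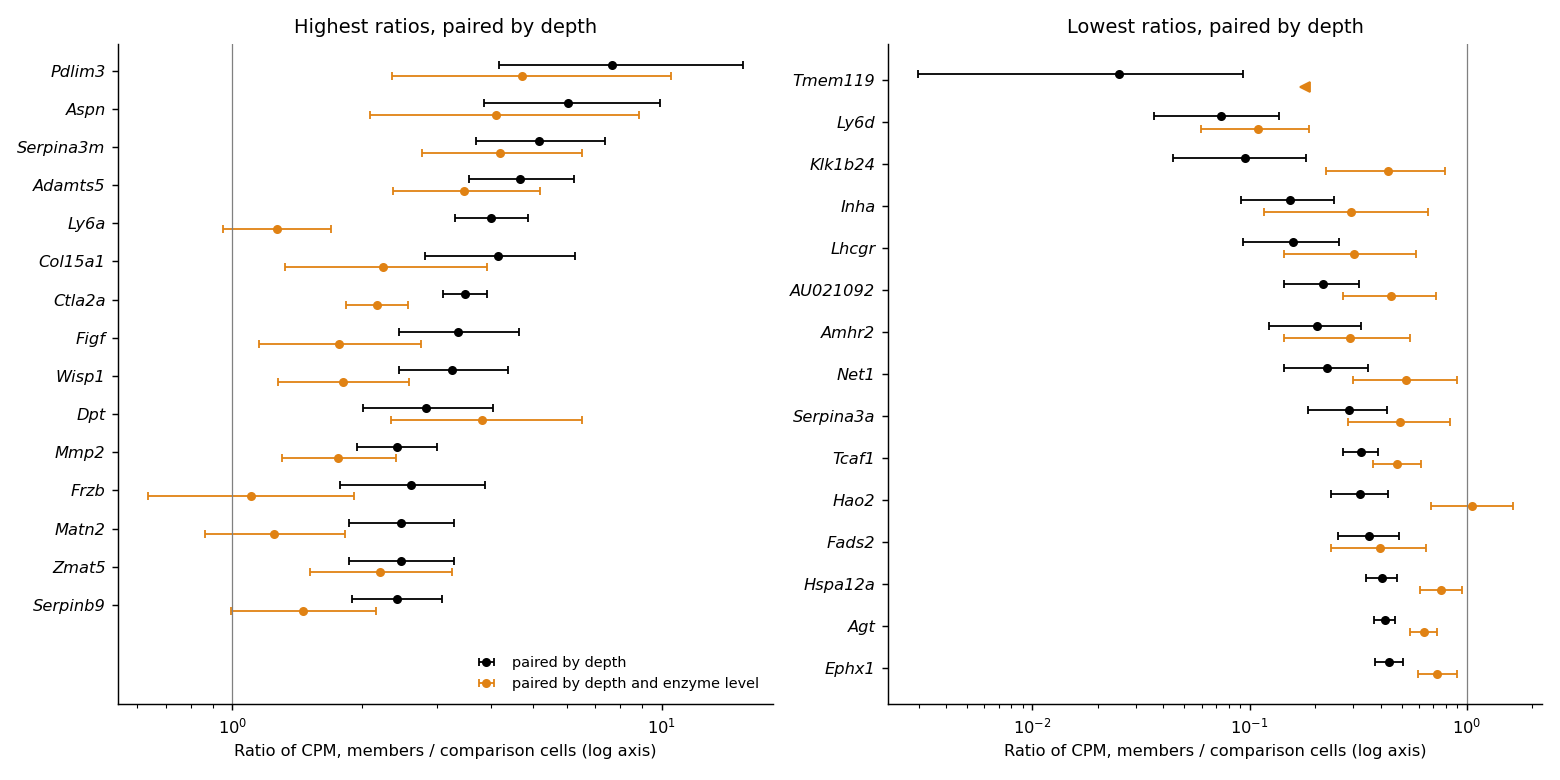
Ratio of CPM of members to comparison cells (log axis) with exact 95% intervals for the 15 genes of highest and 15 of lowest ratio in the depth pairs, with the ratio of the same genes in the depth and enzyme pairs. The arrowhead for Tmem119 marks the upper end of the interval of a ratio of 0. Ratios for Ly6a and Hao2 move close to 1 when the enzyme level is held, and those of Serpina3m, Adamts5, Dpt, Lhcgr and Amhr2 stay away from it in these pairs. In the lowest enzyme class (not shown here) the intervals of Serpina3m, Adamts5, Lhcgr and Amhr2 overlapped.

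The 49 cells with 1 Cyp17a1 UMI lay between the other groups for some genes and beside the members for others. Their Insl3 level was 2954 CPM (2786–3130), between 2315 CPM in all members and 3366 CPM in all comparison cells. Their Star level of 1520 CPM (1400–1647) was closer to the 1422 CPM of the members than to the 1270 CPM of the comparison cells. Lhcgr stood at 36.0 CPM and Amhr2 at 30.9 CPM in them, and Serpina3m at 265 CPM and Adamts5 at 370 CPM. Their median depth was 5065 UMIs, nearer to the comparison cells than to the members. Their median enzyme level was 55.7 per 10000, nearer to the 39.5 of the members than to the 113 of the comparison cells. The part of the enzyme level in these values was not tested.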

How the data were processed

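Drop-seq libraries of culture days 4, 7 and 14 were measured, 1 per day. The authors aligned reads with STAR to GRCm38 and deposited raw UMI counts per gene and cell, without normalization, and removed cells with few genes or many mitochondrial UMIs. The submitters' processing notes also name Picard 2.6.0, SAMtools 1.2 and STAR 2.5.2a. The annotation release is not given in the sources used here. GENCODE M21 gave positions only. The deposited merged table holds 24698 genes and 6124 cells of these days. Its 495 day 0 columns were not used. For the 973 day 14 cells (of 1300 barcodes before removal), 0 entries differed from the day's own file.

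Cells were chosen by the rule in the report and paired 1 to 1 without reuse, with the smallest summed log distance. UMIs were summed as CPM in Python 3.11.15 with scipy 1.17.1. Genes needed 100 CPM in either group for calls at 1.5-fold, and 20 UMIs for lists, with a pseudocount of 10 CPM. The 3 rule genes were left out. Genes named are list genes and the 15 highest and 15 lowest ratios, and some results under this rule are not reported here. Thinned shares were computed exactly. Members and lists were chosen with earlier results of these data known. With 1 library no test was made. Scripts were tested on simulated data. Scrublet called 1 of 973 cells a doublet, too few to rely on its calls, so no cell was removed in the main values. Alternatives covered the thresholds, matching, cell filters, doublet scores and gene minimum, and 1, the removal of cells with 50 or more cell cycle UMIs, was added after seeing the data.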

Additional observations from a re-analysis of the deposited data

How the results depend on the processing

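No paired analysis was possible because there is 1 library per day and the samples carry no shared replicate numbers. The number of members was 166 to 289 under 6 alternatives and 116 with at least 3000 UMIs per cell, where fewer cells enter. Thinning to 1000 UMIs put 23.6% of the comparison cells at 0 for Cyp17a1, against 14.8% at 2000. Genes higher in the members numbered 88 in the depth pairs, 45 without depth matching, 49 against cells with 1 or more Cyp17a1 UMIs and 177 with a minimum of 50 CPM, where more genes enter, and 79 to 128 under the other 12 alternatives. Genes lower numbered 72, with 147 at that minimum and 48 to 90 under the other 14. For the counts of 45 and 49 the cause was not tested. The mature Leydig median log2 ratio was -0.84 and kept its sign under 14 alternatives (-0.89 to -0.62), but was 0.067 with depth and enzyme level matched. The cause was not tested. The stromal progenitor median ranged from 0.14 to 0.74 over 15 alternatives and the steroid synthesis median from -0.32 to 0.21. The cell cycle median of -1.46 rested on 1 comparison cell with 217 such UMIs of 18378 (next highest 7, highest in a member 34). It was -0.30 without that cell and 0.27 with depth classes, so no direction is given. Depth limits Cyp17a1 calls in shallow members, and 1 library allows no estimate of variation between cultures.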

Other observations

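A few further lists complete the description of the 229 Cyp17a1-negative cells. In the depth pairs, 2 of 7 measured interferon response genes were at least 1.5-fold higher in the members and none was lower, beside 5.30% and 5.47% of all 7145 genes. They were Ifitm3, an antiviral membrane protein, at 326 and 172 CPM (ratio 1.89, 1.54–2.33), and Ifit2, an interferon-induced protein, at 31.9 and 4.66 CPM (6.85, 2.36–27.1). With the enzyme level held, none of 6 passed that size, and Ifitm3 stood at 304 and 234 CPM. Among retinoid genes, Aldh1a2, a retinaldehyde dehydrogenase, stood at 26.8 and 89.7 CPM and then at 40.2 and 41.5 CPM.

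Of 11 genes of the adrenal cortex, 4 were at 0 in the paired members, and of 11 genes of fetal Leydig cells, 5 were at 0. Cyp11b2, Mc2r, Nr0b1 and Shh were at 0, as were Crhr1, Dlk1, Gli1 and Sult1e1. Cyp21a1 had 2.55 CPM in the members and 0 in the comparison cells. Mrap, an accessory protein of melanocortin receptors, stood at 243 and 262 CPM (0.925, 0.759–1.13). Among nuclear RNAs, 1 of 4 was lower by 1.5-fold (beside 5.47% of all genes), which was Meg3 (61.3 and 104 CPM), and the list's median log2 ratio was -0.063.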
